A study of Mus musculus with 3 samples.

Results

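Fetal Leydig cells, the androgen-making cells of the testis interstitium, were followed in neonatal mouse testes that differ at Cdk2, which encodes a cyclin-dependent kinase of the cell cycle. A cell was counted as a fetal Leydig cell when it held at least 10 unique molecular identifiers (UMIs, 1 per captured RNA molecule) of Cyp11a1, Cyp17a1 and Hsd3b1 together and at most 3 UMIs of the Sertoli cell genes Amh, Sox9 and Cldn11. The rule found 217 of 14422 cells (1.5%, 95% exact binomial interval 1.31 to 1.72). Because it reads the RNA of these same cells, what sets them apart from other cells is a description of the cells it found and carries no test.

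The study made 1 single-cell library for each of 3 genotypes, named Cdk2-WT for Cdk2 +/+, Cdk2-HET for Cdk2 +/YS and Cdk2-Y15S for Cdk2 YS/YS. The YS allele replaces the tyrosine whose phosphorylation holds CDK2 in check, and all 3 genotypes came from Cdk2 +/YS parents. The males were at postnatal day 3 (dissection at 3.5 days post partum), on a background mixed from B6(Cg)-Tyrc-2J/J and FVB/NJ, and untreated. Testes were dissociated with trypsin/EDTA and DNase I, and whole-testis cells were profiled with 10x Genomics 3' chemistry. The sources used here do not state how many animals went into each library, so a difference between libraries below describes these libraries, with no replicate check and no p-value.

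Fetal Leydig cells arise in the embryonic testis from interstitial and perivascular precursors, under Hedgehog signals from Sertoli cells and the nuclear receptor NR5A1 (SF-1), and are later replaced by an adult population. They take up or make cholesterol, STAR delivers it to the inner mitochondrial membrane, and CYP11A1, HSD3B1 and CYP17A1 turn it in that order into androstenedione. In the fetal mouse testis the last step to testosterone is made in Sertoli cells, which carry HSD17B3. Fetal Leydig cells also secrete INSL3, the peptide that drives the first phase of testis descent.

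Under this rule, the cells made up a like share of each library. Cdk2-WT held 75 of 5061 (1.48%, 1.17 to 1.85), Cdk2-HET 69 of 4958 (1.39%, 1.08 to 1.76) and Cdk2-Y15S 73 of 4403 (1.66%, 1.30 to 2.08), with intervals that overlap throughout. The rule reads Cyp17a1 and Cyp11a1, which were lower in the homozygote (below), so the likeness depends on the rule. A limit of 20 steroid UMIs left 68 wild-type, 64 heterozygous and 52 homozygous cells, fewest in the homozygote. Choosing cells by Insl3, added after the data were seen, gave 80, 84 and 96, most in the homozygote. Together the 217 cells gave 1792894 UMIs (535341, 651998 and 605555), at a median of 7722 per cell (6646, 8772 and 7810) against 5557.5 to 5888 in the other cells of each library. All intervals in the text cover counting error only. Mitochondrial transcripts made up a median of 8.73% of their UMIs against 3.85% in other cells, and 82 of the 217 lay above 10%. Barcodes found in more than 1 library numbered 87, of which 2 were carried by a fetal Leydig cell, and none of the authors' 141 germ cells was among the 217.

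The label was checked with 2 markers that the rule does not read. Insl3 had a UMI in 212 of the 217 cells (97.7%, 94.7 to 99.2), against 28 of 4379 cells of a Sertoli cell class (0.639%) and 266 of 3969 of a stromal class (6.70%), both defined by marker UMIs. Star had a UMI in 174 cells (80.2%, 74.3 to 85.3), against 5.16% and 0.831% of those classes. The median depths were 7722, 6863 and 5511 UMIs. Both markers were therefore far above their share in those classes. Cells of those classes held at most 3 UMIs of the rule's steroid genes, so cells rich in these were left out of them beforehand.

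At the edge of the rule, 21 cells held 10 to 14 UMIs of the steroid genes, of which 20 had Insl3 (median 15 UMIs) and 4 had Star. Just below it, 27 cells held 5 to 9, of which 23 had Insl3 (median 7) and 5 had Star. The Sertoli limit left out 9 further cells, all with Amh (median 6 UMIs). Scrublet, a doublet caller, marked 2 of the 217 cells. A further check found 8 cells with at least 10 UMIs of another cell type's marker list, 5 of them with macrophage, 2 with stromal and 1 with erythroid genes (1 from the wild-type library, 4 from Cdk2-HET and 3 from the homozygote). Values without these 8 cells are given for the named genes found to rest on them.

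The promoters of the leading markers show the DNA beside which these transcripts start. Insl3 is shown as the secreted product, and Hsd3b1 with Hao2 as neighbours on chromosome 3. Hsd3b1 is a gene of the rule, so its place among the markers was set by the choice of cells. The stretches lie directly upstream of each start in RefSeq, build GRCm38.p6, less any base that GENCODE M21 places inside a transcript, and are written 5' to 3' on the gene's strand: Insl3 at chr8:71689002-71689213 (plus strand), Hsd3b1 at chr3:98859795-98860044 (minus) and Hao2 at chr3:98893240-98893480 (minus). Capitals mark AAGGTC, the core to which NR5A1 binds, searched on both strands.
Insl3: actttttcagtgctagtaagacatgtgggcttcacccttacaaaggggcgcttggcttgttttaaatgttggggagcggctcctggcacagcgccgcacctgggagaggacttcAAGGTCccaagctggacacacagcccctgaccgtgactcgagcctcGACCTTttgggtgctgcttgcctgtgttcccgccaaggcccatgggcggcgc
Hsd3b1: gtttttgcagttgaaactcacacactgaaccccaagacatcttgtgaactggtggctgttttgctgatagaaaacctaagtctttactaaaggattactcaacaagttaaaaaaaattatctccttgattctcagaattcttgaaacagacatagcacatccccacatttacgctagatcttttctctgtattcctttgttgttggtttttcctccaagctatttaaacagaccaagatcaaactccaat
Hao2: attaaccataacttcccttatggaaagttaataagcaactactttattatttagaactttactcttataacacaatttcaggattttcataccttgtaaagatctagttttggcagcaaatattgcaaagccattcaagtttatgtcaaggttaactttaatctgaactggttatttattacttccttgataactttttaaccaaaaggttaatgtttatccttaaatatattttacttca
Insl3 held the letters at bases 136 to 131 upstream of its RefSeq start on the gene's strand and at bases 90 to 85 on the opposite strand, where they read GACCTT. Hsd3b1 and Hao2 held none, and none of the 3 held TATAAA, searched on both strands too. Among all 32851 promoters of the table, 10.6% held AAGGTC and 12.4% TATAAA in the same 250 bases. A match is a description of letters, not of binding.

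Levels are given as UMIs of a gene per 1000000 UMIs of the summed cells (CPM), with the wild type first, the heterozygote next and the homozygote last. Of 5770 genes with at least 50 UMIs measured or expected in the fetal Leydig cells, 514 (8.91%) were at least 2-fold higher than in all other cells in each of the 3 libraries. Another 591 (10.2%) were at least 2-fold lower in each. Against the stromal class alone, the interstitial neighbours, the counts were 733 and 468. The median log2 ratio over all 5770 genes was -0.08, with 2683 above 0.

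The steroid pathway led. Cyp17a1 (chromosome 19, 46667165 to 46673172, GRCm38) stood at 6303, 5127 and 1480 CPM, against 8.70 in all other cells. Hsd3b1 stood at 4664, 4589 and 5095, against 9.86, and Cyp11a1 at 2994, 3152 and 1562, against 5.61. These 3 genes chose the cells, so their height is the rule restated. Star, which it did not read, stood at 650.1, 764 and 533 CPM against 5.25 (log2 6.79 to 7.02 across libraries). Reads of Hsd3b1 can be shared with its near copy Hsd3b6, which makes it uncertain, although Hsd3b6 itself had 0 of 1792894 UMIs, which allows up to 1.67 CPM.

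Insl3 (chromosome 8, 71689214 to 71690575), the descent hormone, stood at 2639, 2781 and 2101 CPM, against 17.6 in other cells, with log2 ratios of 6.27 to 8.04. It was high in all 3 libraries. Per cell its median was 13, 24 and 15 UMIs, in cells of unequal depth. After thinning to equal depth (below), which left out the shallower cells, the medians were 11, 13 and 9, lowest in Cdk2-Y15S. Lhcgr, the luteinizing hormone receptor, through which the pituitary later drives these cells, stood at 278, 158 and 162 CPM against 1.87. Its Cdk2-WT value was the highest of the 3.

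Among genes with at least 100 UMIs, the 25 with the highest ratio to other cells in their lowest library reached beyond the classical pathway. Hao2, a peroxisomal hydroxyacid oxidase, headed them at 1317, 1370 and 1194 CPM against 2.76 (log2 8.63 to 9.33). It lies 14.7 kb from Hsd3b1 on chromosome 3 (Hao2 at 98874521 to 98893239, Hsd3b1 at 98852194 to 98859794, GRCm38). C4b, a complement component, stood at 267, 265 and 154 CPM against 0.469, and lies 57.5 kb from the steroid 21-hydroxylase gene Cyp21a1 on chromosome 17. These were the 2 pairs of genes within 100 kb of each other among the 61 genes with at least 100 UMIs and a log2 ratio of at least 3 in every library. Because Hsd3b1 helped choose the cells, nothing is read from its pair with Hao2.

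Signalling and metabolic genes filled much of the same group of 25. Gpha2, a glycoprotein hormone alpha subunit, stood at 286, 141 and 74.3 CPM against 0.447. Oxtr, the oxytocin receptor, stood at 119, 127 and 122 against 0.559. Kcnk3, an acid-sensitive potassium leak channel, stood at 573, 879 and 1067 against 10.0. Oxtr was level across libraries, while Gpha2 was highest and Kcnk3 lowest in Cdk2-WT. Adh1, an alcohol dehydrogenase, stood at 915, 979 and 1072 CPM against 7.11, and Acsbg1, an acyl-CoA synthetase, at 2740, 2459 and 2328 against 114. Ephx1, an epoxide hydrolase, stood at 224, 164 and 129 against 2.89. Slc45a3, Gramd1b, Mapt, Sez6l2, Bpifb4, Slc25a35, Serpina3c, Mrap, Ren1, Agt and Cyp21a1 completed the group with the marker and receptor genes already named.

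**Figure D1:**
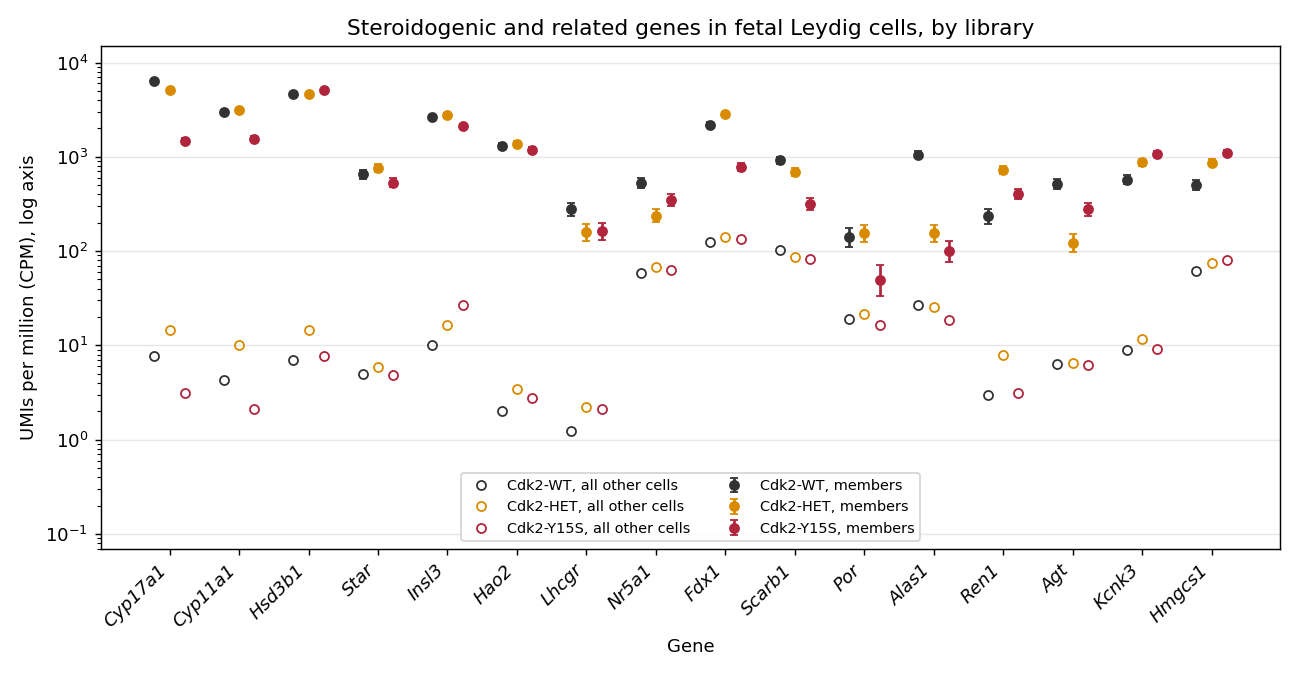
Level of 16 genes in fetal Leydig cells (filled points, with 95% Poisson intervals) and in all other cells (open points) of each library, in CPM on a log axis. The Leydig cells lie above the other cells of the same library for every gene drawn, and Cyp17a1 is lowest in Cdk2-Y15S (1480 against 6303 and 5127).

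Of the 20 genes of steroid enzymes listed, 9 had the 50 UMIs needed, and 7 were at least 2-fold higher in every library and 2 lower (8.91% and 10.2% of all genes). Of the 7, Cyp11a1, Cyp17a1 and Hsd3b1 are the rule's own genes, so nothing is read from that count. The 13 with at least 20 UMIs had a median log2 ratio of 2.96, but the rule's 3 genes are among them, so nothing is read from that median either. Of the 20, 4 had no UMI. Hsd17b7, an enzyme of cholesterol synthesis as well, stood at 29.9, 50.6 and 23.1 CPM against 10.9. The 2 lower genes were those of the last steps in Sertoli cells. Hsd17b3, which turns androstenedione into testosterone, stood at 7.47, 12.3 and 11.6 CPM against 409.8 in the Sertoli class, and Hsd17b1 gave 29 UMIs in all against 338.5 CPM in that class. A UMI of Hsd17b3 was found in 8.29% of the fetal Leydig cells and in 90.9% of the Sertoli class.

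Of 7 genes listed for the adult Leydig cell, 2 had no UMI. Hsd3b6 and the estrogen sulfotransferase Sult1e1 had 0 UMIs each, which allows up to 1.67 CPM, and Hsd11b1 had 2. At this depth neither of the first 2 was detectable. Srd5a1, a steroid 5-alpha-reductase, lay above other cells at 14.9, 24.5 and 33.0 CPM against 3.19, and the prostaglandin D synthase Ptgds below them at 31.8, 13.8 and 19.8 against 362. Akr1c14, which acts on 5-alpha-reduced androgens, had 12 UMIs, and Hsd17b3 is given above.

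Adrenal steroid enzymes were found in a minority of the cells. Cyp21a1 (steroid 21-hydroxylase) gave 108 UMIs in 21 cells and Cyp11b1 (11-beta-hydroxylase) 78 UMIs in 30, against 2 and 5 UMIs in all other cells. By library Cyp21a1 stood at 99.0, 70.6 and 14.9 CPM and Cyp11b1 at 46.7, 64.4 and 18.2, lowest in Cdk2-Y15S for both. Of the Cyp21a1 UMIs, 77 lay in 5 cells, and reads of Cyp21a1 may be shared with its pseudogene, which makes it uncertain. The 17 cells with at least 3 UMIs of either gene all had Insl3 (2 to 89 UMIs, median 16). The adrenal markers Cyp11b2 and Mc2r had 0 and 2 UMIs in all 217 cells.

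The mitochondrial and microsomal P450 enzymes need electrons and heme, and the genes that supply them were high. All 9 electron-transfer genes listed lay above other cells (median log2 1.73). Of the 9, 6 were at least 2-fold higher in every library (8.91% of all genes). Fdx1, the ferredoxin that feeds CYP11A1, stood at 2193, 2877 and 783 CPM against 133. Its reductase Fdxr stood at 390, 587 and 533 against 137, and Por, the reductase that feeds CYP17A1, at 140.1, 155 and 49.5 against 19.1. Fdx1 and Por were lowest in Cdk2-Y15S and Fdxr was not. Alas1, the rate-limiting enzyme of heme synthesis, stood at 1057, 155 and 101 CPM against 23.8. It was several-fold higher in Cdk2-WT than in either mutant library, and above other cells in all 3.

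Cholesterol supply was high from both sides. Of 19 synthesis genes, all 19 lay above other cells (median log2 2.20). Of the 18 with enough UMIs, 14 were at least 2-fold higher in every library (8.91% of all genes). Their summed level was 3084 CPM, against 467 in the Sertoli class, 733 in the stromal class and 558 in a class of peritubular myoid cells. A germ cell class, the highest of the other classes, stood at 925. Hmgcs1, an early enzyme of the mevalonate pathway, stood at 508, 870 and 1097 CPM against 71.9, lowest in Cdk2-WT. Dhcr7, which makes cholesterol in the last step, stood at 187, 302 and 152 against 26.0, and Msmo1, a sterol demethylase, at 258, 405 and 296 against 39.7. Ebp, Acat2 and Fdft1 had the smallest ratios of the list.

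Of 23 genes of cholesterol uptake, transport and storage, 18 had enough UMIs (median log2 1.27 over 21). Of the 18, 9 were at least 2-fold higher in every library and 0 lower (8.91% and 10.2% of all genes). Scarb1, the receptor that takes cholesterol ester from HDL, stood at 915, 687 and 319 CPM against 90.4, highest in Cdk2-WT and lowest in Cdk2-Y15S. Abca1, which exports cholesterol, stood at 299, 449 and 570 against 27.9, in the opposite order. That order was not particular to the Leydig cells. Abca1 stood at 18.2, 25.1 and 37.7 CPM in the Sertoli class and at 18.4, 29.8 and 34.7 in the stromal class. In the myoid class it rose less, at 12.0, 13.7 and 15.2. The fatty acid and lipoprotein receptor Cd36 stood at 41.1, 55.2 and 51.2 against 2.09. The cholesterol ester hydrolase Nceh1 stood at 46.7, 104 and 52.8 against 8.87.

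Detoxifying enzymes were mixed. Of 28 antioxidant and detoxification genes with enough UMIs, 9 were at least 2-fold higher in every library and 2 lower. Over all genes the shares were 8.91% and 10.2%, and the count of lower genes was near the latter. Aldh1a1, which oxidises retinaldehyde, stood at 1272, 2015 and 2345 CPM against 459, and the glutathione transferase Gsta2 at 230, 176 and 137 against 40.3. The glutathione transferases Gstm1 (245, 328 and 590 against 1650) and Gstm2 (133, 152 and 264 against 1017) were lower instead. The 13 transcripts encoded by mitochondrial DNA all lay above other cells (median log2 0.80), at a summed 90623 CPM against 50217.

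**Figure D2:**
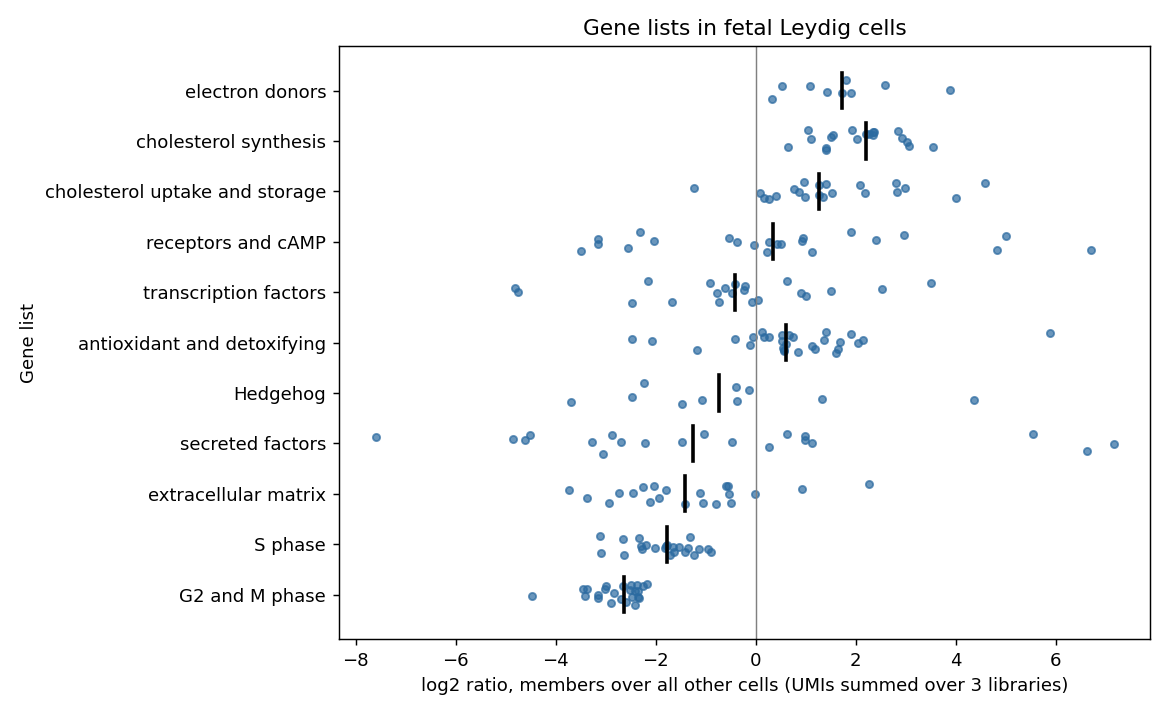
Log2 ratio of fetal Leydig cells over all other cells for the genes of 11 lists (dots, genes with at least 20 UMIs) with the median of each list (black tick). Cholesterol synthesis (2.20) and electron donors (1.73) lie wholly above 0, and the S phase (-1.77) and G2/M (-2.63) lists lie wholly below it.

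Among transcription factors the list as a whole was not high, with 3 of 20 at least 2-fold higher in every library, 5 lower (8.91% and 10.2% of all genes) and a median log2 ratio of -0.42. Nr5a1, the master regulator of steroid genes, stood at 527, 238 and 350 CPM against 63.3, and Cebpb, a factor of cAMP-driven transcription, at 549, 215 and 301 against 30.3. Both were highest in Cdk2-WT. Factors of interstitial progenitors were lower: Tcf21 stood at 3.74, 29.1 and 33.0 CPM against 128, and the Notch target Hes1 at 29.9, 38.3 and 76.0 against 219. Nr2f2 (COUP-TFII) stood at 69.1, 93.6 and 137 against 336 in the stromal class. Gata4 (74.7, 56.7 and 85.9 against 123) and Nr0b1 (37.4, 30.7 and 41.3 against 19.4) stayed within 2-fold on average.

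Hedgehog ligand comes from Sertoli cells, and of the 7 pathway genes with enough UMIs 1 was at least 2-fold higher in every library and 2 lower, counts too small to set apart from the 8.91% and 10.2% of all genes. The higher one was Cdon, a Hedgehog co-receptor, at 353, 176 and 441 CPM against 15.6. Its relative Boc stood at 43.0, 24.5 and 39.6 against 14.2. Targets of the pathway were below the stroma: the receptor Ptch1 stood at 44.8, 92.0 and 74.3 CPM against 157 there, and the effector Gli1 at 5.60, 19.9 and 9.91 against 64.9. The membrane anchor Gas1 stood at 22.4, 19.9 and 21.5 against 119 in all other cells.

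Receptors and cAMP genes split, with 6 of 17 at least 2-fold higher in every library and 3 lower (8.91% and 10.2% of all genes). The 3 lower were too few to set apart from that share. Beside Lhcgr, the higher ones included Mrap, the accessory protein of melanocortin receptors, at 95.3, 93.6 and 62.8 CPM against 2.60, and Kit, the receptor of stem cell factor, at 110, 96.6 and 95.8 against 3.54. Prlr, the prolactin receptor, stood at 239, 301 and 195 against 46.4. Prkar2b, a regulatory subunit of protein kinase A, stood at 762, 905 and 451 against 90.8, lowest in Cdk2-Y15S.

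Secreted factors were mostly lower, with 3 of 17 at least 2-fold higher in every library and 9 lower (8.91% and 10.2% of all genes). The 3 were Insl3, Ren1 (renin) and Agt (angiotensinogen). Renin stood at 234, 727 and 405 CPM against 4.76 and was found in 104 of the 217 cells. Angiotensinogen, the substrate of renin, stood at 517, 123 and 279 against 6.32, was found in 78 cells, and had 52.9% of its UMIs (after thinning to equal depth, below) in 5 cells. The inhibin alpha subunit Inha stood at 941, 1664 and 1232 CPM, between 62.7 in the stromal and 2185 in the Sertoli class. Igf1 (33.6, 39.9 and 38.0 against 806 in the stroma) and Pdgfa (3.74, 4.60 and 8.26 against 133 in all other cells) were low.

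Cell cycle genes were low throughout. None of the 23 S phase and 24 G2/M genes with at least 20 UMIs measured or expected lay above other cells. Of those with enough UMIs, 14 of 18 and 19 of 19 were at least 2-fold lower in every library (10.2% of all genes). After thinning each cell to 5000 UMIs, which left out 35 shallower cells, 5 of 182 held at least 5 UMIs of G2/M genes (2.75%, 0.898 to 6.29), or 9 of 217 unthinned (4.15%). The thinned share was 40.1% in the Sertoli class, 29.3% in the myoid class and 17.9% in the stromal class. By library the cells numbered 1 of 58, 2 of 63 and 2 of 61. For S phase genes the share was 3.85% (1.56 to 7.76) against 58.3%, 49.6% and 37.1%. The CDK inhibitor Cdkn1c stood at 538, 409.5 and 436 CPM against 152 in all other cells and 496 in the stroma. Cdk2 itself, which a substitution changes in sequence and not necessarily in amount, stood at 39.2, 27.6 and 38.0 against 49.0, and 3' counts do not read the allele.

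Further lists described growth control, stress and matrix. Of 14 imprinted genes with enough UMIs, 1 (Cdkn1c) was at least 2-fold higher in every library and 5 lower (8.91% and 10.2% of all genes), with a median log2 ratio of -0.66 over 19. The fetal growth regulator H19, a noncoding RNA, stood at 11.2, 82.8 and 46.2 CPM against 509, and was lowest in Cdk2-WT. Of 21 matrix genes, 1 was at least 2-fold higher in every library and 11 lower (8.91% and 10.2% of all genes), with a median log2 ratio of -1.42. The 1 higher was too few to set apart from that share. The higher one was Lama4, a laminin chain of basement membranes, at 52.3, 56.7 and 59.4 CPM against 11.7, level across libraries. Of 17 immediate early and heat shock genes, 2 were at least 2-fold higher in every library and 0 lower (median 0.24 over 18), a share near the 8.91% of all genes. Dusp1, a phosphatase that ends MAP kinase signals, stood at 385, 219 and 223 CPM against 103, and the heat shock gene Hspa1a at 106, 38.3 and 29.7 against 17.8. Both were highest in Cdk2-WT, and 15 of 17 genes of the list were lower in Cdk2-HET than in Cdk2-WT, at a median log2 ratio of -0.24 against -0.15 for the list in all other cells. In Cdk2-Y15S 11 of 17 were lower (median -0.13, and -0.08 in all other cells), and over all genes 1893 of 3549 were lower in Cdk2-HET. Their part in the differences between libraries was not tested.

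RNA of other cell types was measured in the same cells with marker lists. Sertoli markers summed to 233, 236 and 269 CPM against 3103 in all other cells, and germ cell markers to 5.60, 3.07 and 4.95 against 99.0. Myoid markers summed to 65.4, 144 and 121 against 1416 and endothelial markers to 52.3, 47.5 and 71.0 against 120. All of these lay below the level of the other cells. Macrophage markers, at 304, 647 and 803 against 124, were above it, and a macrophage class stood at 24310. All 7 measured macrophage genes were higher, and 5 were past 2-fold in every library (8.91% of all genes). These UMIs lay in few cells: Lyz2 had a log2 ratio to other cells of 2.14 with the 8 cells that carry another type's markers and -4.22 without them. Stromal markers summed to 766, 1408 and 1551 CPM, lowest in Cdk2-WT, against 9634 in the stromal class. The single myoid genes Acta2 (14.9, 33.7 and 23.1 against 821) and the Sertoli gene Amh (11.2, 16.9 and 9.91 against 373) were among the lowest relative to other cells.

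The cells differed among themselves in a few genes far more than in most. After thinning to 5000 UMIs, the highest ratios of variance to mean were those of Tmsb4x (74.6), Apoe (52.4), Lyz2 (49.0) and Ftl1 (43.0), and without the 8 cells with another type's markers they were 3.63, 3.64, 1.00 and 4.20. The size of this ratio depends on depth: for Tmsb4x it was 42.9 at 3000 UMIs and 277 unthinned, and for Cyp17a1 it was 11.9 and 48.1 where 5000 gave 17.9. Genes whose spread was as large without those cells were mt-Co1 (36.3), Malat1 (33.9), Agt (19.9), Cyp17a1 (18.0), Cyp21a1 (13.5) and Hsd3b1 (12.3). The uneven spread of Agt and Cyp21a1 was thus found in cells other than those 8.

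Across the 182 thinned cells, which share depth and libraries, pairs of genes differed in how far they varied together. The rank correlation of Hsd3b1 with Acsbg1 was 0.77 (0.69, 0.79 and 0.83 within the libraries). That of Cyp11a1 with Hsd3b1 was 0.66 and that of Cyp17a1 with Hsd3b1 0.29, but the sum of these 3 genes chose the cells, which bears on both values. Cyp17a1 followed Fdx1 at 0.50, 0.40 and 0.24 within the libraries. Insl3 had 0.39 with Scarb1 (0.35, 0.41 and 0.27 within the libraries) and -0.25 with Inha (-0.34, -0.10 and -0.44). With the rule's genes Insl3 had 0.29 for Cyp17a1 (0.07, 0.19 and 0.44) and 0.03 for Cyp11a1 (-0.24, -0.004 and 0.04). For Hsd3b1 it had -0.14 (-0.31, -0.14 and -0.05), and the choice of cells bears on these 3 pairs too. Inha and Aldh1a1 had 0.67 (0.57, 0.65 and 0.77). Insl3 and Akr1cl, a gene chosen after its values were seen, had -0.42, -0.18 and -0.21 within the libraries. These are descriptions of sparse counts, with no test.

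**Figure D3:**
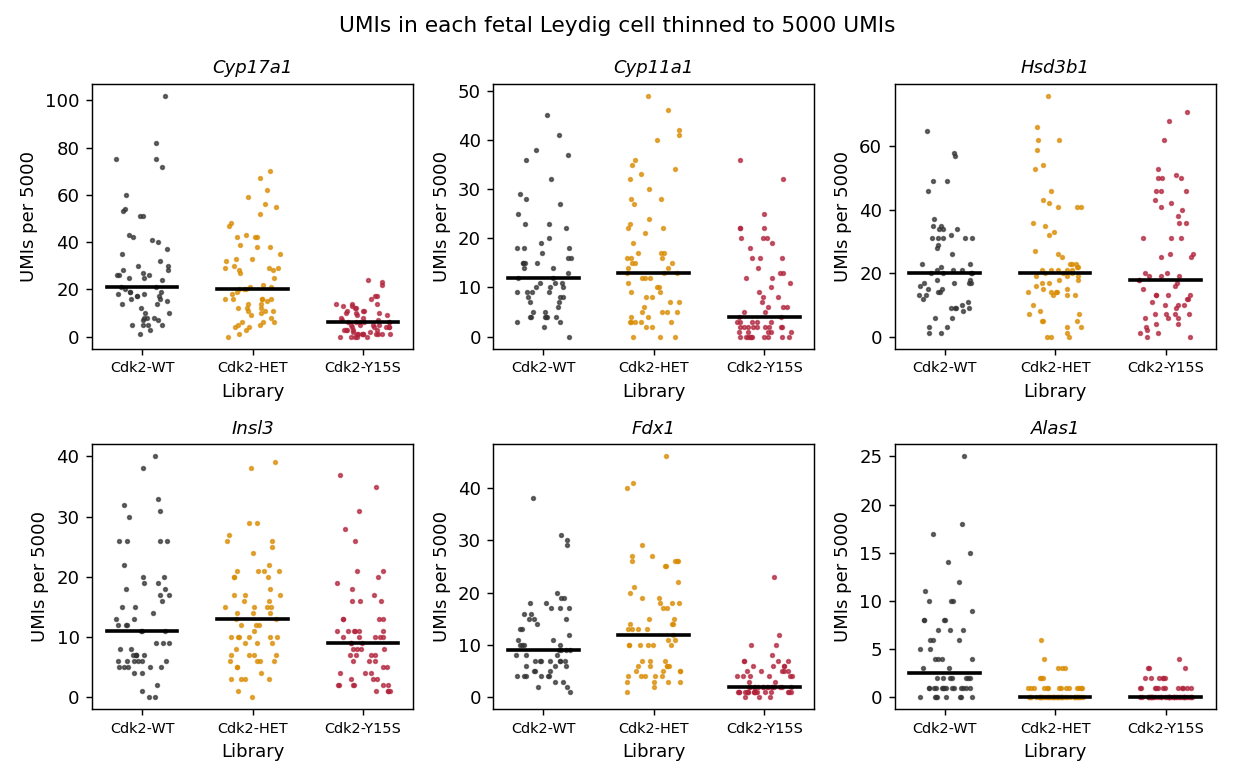
UMIs per fetal Leydig cell after thinning to 5000 UMIs, for 6 genes, by library (dots, cells; black line, median; 58, 63 and 61 cells). Medians of Cyp17a1 are 21, 20 and 6, of Fdx1 9, 12 and 2 and of Alas1 2.5, 0 and 0, while those of Hsd3b1 are 20, 20 and 18.

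The genotypes were compared within the fetal Leydig cells as log2 ratios of summed CPM, with the conditional exact binomial 95% interval. Both ratios below use the same Cdk2-WT cells, so they are given side by side and not counted as agreement. Of 3488 genes with at least 50 UMIs, 69 (1.98%) were at least 2-fold higher in Cdk2-Y15S than in Cdk2-WT and 66 (1.89%) lower, with a median of -0.03 over all. Of 3549 genes, 61 (1.72%) were at least 2-fold higher in Cdk2-HET than in Cdk2-WT and 59 (1.66%) lower. The ratios had an SD of 0.473 and 0.454, against 0.261 and 0.211 for the same genes in all other cells, which hold far more UMIs. Median depth (6646, 8772 and 7810 UMIs) and mitochondrial share (8.63%, 8.53% and 9.16%) moved with the libraries as well, and their part in the differences was not tested.

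Of the 3 genes of the rule, Star and Insl3, Cyp17a1 differed most. Its median per thinned cell was 21, 20 and 6 UMIs, its log2 ratio was -2.09 (-2.20 to -1.98) for Cdk2-Y15S and -0.30 (-0.37 to -0.23) for Cdk2-HET, and Cdk2-Y15S lay -1.79 (-1.90 to -1.69) from Cdk2-HET. Cyp11a1, which acts first in the pathway, had -0.94 (-1.06 to -0.82) and 0.07. Hsd3b1, which acts between them, had 0.13 (0.05 to 0.20) and -0.02, Star -0.29 and 0.23, and Insl3 -0.33 (-0.44 to -0.22) and 0.08. So the 3 genes of 1 pathway were unequal: in Cdk2-Y15S Cyp17a1 differed most from the wild type, Cyp11a1 less, and Hsd3b1 little. Because the rule sums these 3 genes, the cells were also chosen by at least 5 Insl3 UMIs in place of the 3 genes, an alternative added after the data were seen. Cyp17a1 then had -2.27, Cyp11a1 -1.21 and Hsd3b1 -0.16 in Cdk2-Y15S. That choice brought in 14, 18 and 41 cells from outside the rule, most of them from Cdk2-Y15S. These held a median of 3, 1 and 1 UMIs of the 3 steroid genes together. The mix of cells thus changed unevenly between libraries, and its part in these values was not tested. Over the 15 alternatives tried, Cyp17a1 stayed between -2.27 and -1.92, while Cyp11a1 lay between -1.21 and -0.65 and was past 2-fold in 3.

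Among the electron donors, 2 of the 8 with enough UMIs were at least 2-fold lower in Cdk2-Y15S and 0 higher (1.89% and 1.98% of all genes). The median of the list was -0.04, with 3 genes above and 6 below 0, near the -0.03 of all genes. The 2 were Fdx1 and Por. Fdx1 had -1.49 (-1.64 to -1.33), with 0.05 in the stromal class and 0.11 in the Sertoli class of the same libraries, and 0.39 (0.29 to 0.50) in Cdk2-HET. Por, the partner of CYP17A1, had -1.49 (-2.16 to -0.87) and 0.14, and the lipoprotein receptor Scarb1 -1.52 (-1.77 to -1.28) and -0.41 (-0.60 to -0.23). Fdx1 and Por were thus low in the homozygous library alone, and Scarb1 was intermediate in the heterozygous one. Fdxr went the other way, at 0.45 and 0.59. All of Fdx1, Por and Scarb1 stayed past 2-fold in Cdk2-Y15S under each of the 15 alternatives.

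Alas1 was low in both mutant libraries. It had -3.38 (-3.80 to -3.01) in Cdk2-Y15S and -2.77 (-3.09 to -2.46) in Cdk2-HET, against -0.52 and -0.08 in all other cells. A UMI of it was found in 64 of 75, 32 of 69 and 29 of 73 cells, and at equal depth in 86.2%, 34.9% and 36.1%. The range over the alternatives was -3.47 to -3.23 and -2.91 to -2.42. Alas1 lies on chromosome 9 (106233455 to 106248654, minus strand, GRCm38).

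Nr5a1 and Cebpb were lowest in Cdk2-HET. Nr5a1 had -1.15 (-1.44 to -0.86) there and -0.59 (-0.85 to -0.33) in Cdk2-Y15S, against 0.19 and 0.11 in all other cells. It was past 2-fold in Cdk2-HET in 14 of 15 alternatives (-1.21 to -0.99). Cebpb had -1.35 (-1.66 to -1.06) and -0.87 (-1.14 to -0.60), with -0.92 and -0.29 in other cells, so part of its difference was shared by the whole library. Gpha2 had -1.93 (-2.46 to -1.46) in Cdk2-Y15S and -1.02 (-1.41 to -0.64) in Cdk2-HET, and Lhcgr -0.78 and -0.81. Cdon had 0.32 and -1.0 (-1.35 to -0.66).

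Renin and its substrate differed from Cdk2-WT in opposite directions in Cdk2-HET. Ren1 had 1.63 (1.35 to 1.93) there, found in 26, 47 and 31 cells, with 1.42 in all other cells, and 0.79 (0.48 to 1.12) in Cdk2-Y15S. Agt had -2.07 (-2.45 to -1.71) and -0.89 (-1.18 to -0.61), with 0.03 and -0.05 in other cells. That pool mixed classes with unlike values. In the same order, Agt had -1.88 and -1.82 in the Sertoli class, at a level of 2.33 CPM. It had -0.82 and -1.35 in the myoid class, and 1.01 and 1.19 in the stromal class. At equal depth Ren1 had a UMI in 36.2%, 58.7% and 32.8% of cells and Agt in 37.9%, 22.2% and 31.1%. Since the UMIs of Agt lie in few cells, its value rests on those cells, and over the alternatives it ranged from -3.05 to -1.39 in Cdk2-HET.

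Cholesterol synthesis genes leaned higher in Cdk2-HET, with 16 of 18 above 0 and a median of 0.39, and were balanced in Cdk2-Y15S (9 of 18 above 0, median -0.04). The medians over all genes were -0.03 in both. Hmgcs1 had 0.77 (0.56 to 0.99) and 1.11 (0.90 to 1.32) in the same order, and Kcnk3 0.61 (0.41 to 0.82) and 0.89 (0.70 to 1.10). Both were thus higher in the mutant libraries, by less than 2-fold for Kcnk3, and Hmgcs1 passed 2-fold in Cdk2-Y15S in 12 of 15 alternatives.

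**Figure D4:**
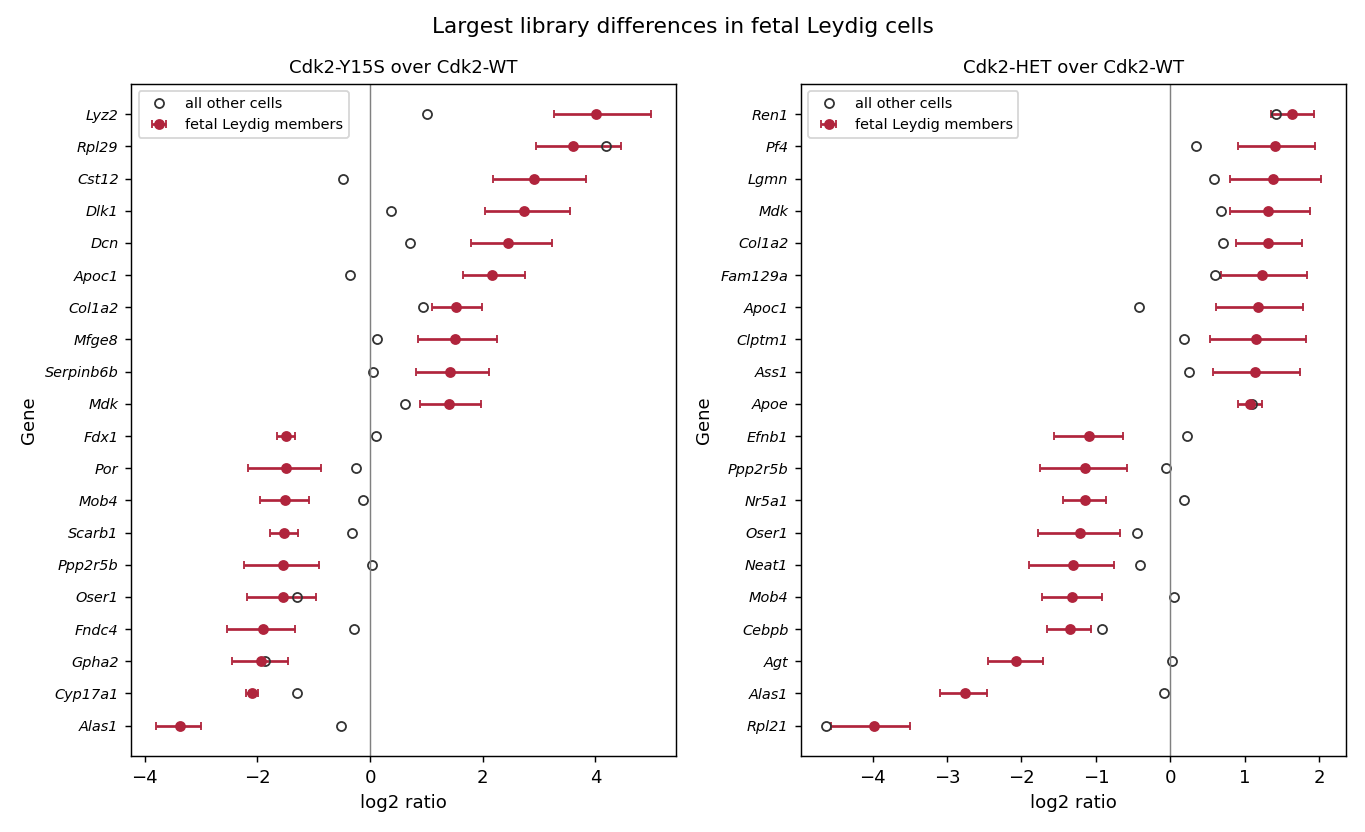
Log2 ratio of Cdk2-Y15S over Cdk2-WT and of Cdk2-HET over Cdk2-WT for the 10 highest and 10 lowest genes in fetal Leydig cells (red, with 95% counting intervals) and in all other cells (open). Alas1 (-3.38 and -2.77) lies far from its open point in both, while Rpl29 (3.61) and Rpl21 (-3.98) lie near theirs.

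Several of the genes highest in Cdk2-Y15S belong to other cell types and to single cells. Lyz2, a macrophage gene, had 4.01 from 8 cells in all and 1.44 without the 8 cells with another type's markers. The progenitor gene Dlk1 stood at 33.6, 92.0 and 228 CPM against 3978 in the stromal class, and its ratio of 2.73 was 1.44 without them. The matrix gene Dcn had 2.45, and 1.04 without them. Stromal markers as a list had a median of 1.60 (8 of 8 above 0), with 0.84 in all other cells. Cst12, a cystatin, had 2.92 (2.19 to 3.84), and 1.91 without the top cell of each library. Apoc1, an apolipoprotein, stood at 65.4, 149 and 296 CPM, with 2.16 (1.65 to 2.74) in Cdk2-Y15S and 1.17 (0.62 to 1.79) in Cdk2-HET, against -0.35 and -0.42 in other cells, and 1.61 to 2.41 over the alternatives for Cdk2-Y15S. Its Cdk2-HET ratio was 0.30 among cells with at most 10% mitochondrial UMIs. Apoc1 was thus lowest in Cdk2-WT, and in Cdk2-Y15S its ratio did not shrink without the top cell of each library (2.41). The other cells were not alike in this gene. For Cdk2-Y15S and Cdk2-HET, Apoc1 had -0.42 and -0.34 in the Sertoli class and 0.46 and -0.31 in the stromal class. In the myoid class, with 35 UMIs, it had 1.17 and 0.90.

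Large ratios were also found for 2 ribosomal protein genes with many near copies, which makes their counts uncertain. Rpl29 had 3.61 in Cdk2-Y15S, with 4.19 in all other cells. Rpl21 had -3.98 in Cdk2-HET, with -4.63 in other cells. Each was therefore as large outside the fetal Leydig cells. Among the other genes lowest in Cdk2-Y15S, Fndc4, a secreted fibronectin type III domain protein, had -1.90, Oser1 -1.55, Ppp2r5b, a regulatory subunit of protein phosphatase 2A, -1.54 and Mob4 -1.51. In Cdk2-HET, Mob4 had -1.32, the long noncoding RNA Neat1 -1.31, Oser1 -1.21, Ppp2r5b -1.14 and Efnb1, an ephrin, -1.09. Higher in Cdk2-HET were Mdk, a heparin-binding growth factor (1.31), Col1a2, a collagen chain (1.31), Fam129a (1.23), Clptm1 (1.15) and Ass1, argininosuccinate synthase (1.13). Apoe (1.07) and Lgmn, a lysosomal protease (1.37), were higher too, but without the 8 cells with another type's markers they had 0.49 and 0.67, under 2-fold. The macrophage gene Pf4 had 1.41, 1.38 without those cells and 5.19 without the top cell of each library, so its value turns on single cells.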

How the data were processed

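The authors deposited whole-number UMI counts per gene and cell for 3 libraries. Alignment and counting with Cell Ranger 2.1.0 on mm10, and the use of Seurat, are per the submitters' processing notes, and neither the gene annotation nor the cell calling is stated in the sources used here. The matrix held 27998 genes in 14422 cells, and library totals were 30624473, 32025077 and 28651691 UMIs. Such counts measure RNA captured at the 3' end, so levels are compared between cells rather than between genes, and whether all of a type's cells survived dissociation is not known from them.

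All deposited cells were used, with no further filter and doublets left in. UMIs were summed per library over the fetal Leydig cells and over all others and divided by the total. Log2 ratios had 0.5 UMI added to each sum, and a gene was counted past the fold at log2 1 or -1, in all 3 libraries for the contrast with other cells. With 1 library per genotype no test was run. Poisson, Clopper-Pearson and conditional binomial intervals were computed with SciPy 1.17.1, in Python 3.11.15 with NumPy 2.4.6 and pandas 2.3.3, and figures with matplotlib 3.10.9. Scrublet ran through Scanpy 1.11.5 with an expected rate of 6%. The ratio and its calls were tested on simulated data. Cells of other classes held at least 5 UMIs of the class's genes, at most 1 in 3 as many of any other class, and at most 3 steroid UMIs. Positions are from GENCODE M21 (GRCm38), in which 27722 gene identifiers were found.

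The members and gene lists were chosen with earlier results of these data known. Named genes were those of the rule and marker list, of the steroid, electron donor, transcription factor, receptor, Hedgehog and secreted lists with at least 20 UMIs, the 3 highest and lowest of each other list, the 25 highest and 10 lowest against other cells, the 10 highest and lowest of each genotype contrast (100 UMIs at least), and the 15 most variable. The last also needed 50 thinned UMIs, a limit added after the data were seen. Values of some members of the transcription factor list are not reported here. Genes for the correlations were chosen after values were seen.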

Additional observations from a re-analysis of the deposited data

Results flagged for a closer look

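Differences of at least 2-fold between libraries had the opposite sign in the fetal Leydig cells and in all other cells of the same libraries for 6 genes, with both counting intervals clear of 0. Values are log2 ratios. Of Cdk2-Y15S over Cdk2-WT, Cst12 had 2.92 in the Leydig cells and -0.49 in the others, Gstm1 1.27 and -0.48, Apoc1 2.16 and -0.35, and Fdx1 -1.49 and 0.11. Of Cdk2-HET over Cdk2-WT, Apoc1 had 1.17 and -0.42, Nr5a1 -1.15 and 0.19, and Efnb1 -1.09 and 0.22. The difference between the Leydig cells and the others was not tested for any of them, since each genotype has 1 library. The others are a pool whose make-up differed, with 1733, 1648 and 998 Sertoli-class and 1106, 1416 and 1447 stromal-class cells. The part of that make-up in these signs was not tested. For Apoc1 in Cdk2-Y15S, the Sertoli class had -0.42, but the stromal class had 0.46 and the myoid class 1.17. In Cdk2-HET these classes had -0.34, -0.31 and 0.90.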

How the results depend on the processing

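No paired analysis was possible because each genotype has 1 library, so the groups share fewer than 2 replicate numbers. The limits of these data are 1 library per genotype, 69 to 75 fetal Leydig cells in each, and counts that leave most single genes with wide intervals. The alternatives that left out cells with another type's markers, left out the top cell of each library, left the 3 steroid genes out of the total or chose cells by Insl3 were added after the data were seen. Of the alternative values of the counts of cells and genes, 115 moved by less than their limit and 25 by more. Keeping only cells with 500 genes or more and no more than 10% of mitochondrial UMIs left 135 cells (48, 45 and 42), with 349 genes lower than in other cells and 39 higher in Cdk2-HET. With 5 UMIs added, 41 genes were lower in Cdk2-Y15S and 35 higher in Cdk2-HET. With a minimum of 20 UMIs, 944 genes were lower than in other cells, 262 higher and 237 lower in Cdk2-Y15S, and 222 and 223 in Cdk2-HET, and with no minimum 6988 were higher and 1426 lower than in other cells. With a minimum of 100 UMIs the counts were 23 and 24 in Cdk2-Y15S and 16 and 15 in Cdk2-HET. A fold of 4 gave 184 genes higher and 261 lower than in other cells, and a fold of 1.5 gave 280 and 328 in Cdk2-Y15S and 233 and 291 in Cdk2-HET. Without the cells with another type's markers 4 values changed sign, all of macrophage-related genes: Hmox1 to -0.39 in Cdk2-Y15S, C1qc to -0.20 in Cdk2-HET and to -5.57 against other cells, and Pf4 to -2.01 against other cells. Values of single genes and list medians together moved in 381 cases and did not in 5780, most often with cells chosen by Insl3 (70) and with the mitochondrial limit (65). Ratios of variance to mean moved in 27 cases and did not in 3, with the thinning depth.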

Other observations

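Cells with Insl3 but few UMIs of the steroid genes were found beside the fetal Leydig cells. At least 5 Insl3 UMIs and the same Sertoli limit, a choice made after the data were seen, gave 260 cells, 80 from the wild-type library, 84 from Cdk2-HET and 96 from Cdk2-Y15S. Of these, 187 were among the 217 cells chosen by steroid genes, and 73 were not (14, 18 and 41). The 73 held a median of 8 Insl3 UMIs and 1 UMI of the 3 steroid genes together. Dlk1, a gene of interstitial progenitors, was found in 53 of them, Lhcgr in 35 and Hsd3b1 in 21, and the median of Hao2 was 0. Their median depths were 8960.5, 8516.5 and 7106 UMIs, against 6646, 8772 and 7810 in the cells chosen by steroid genes. In the other direction, 30 of the 217 had fewer than 5 Insl3 UMIs (9, 3 and 18). The summed level of Insl3 in the stromal class was 8.36, 23.1 and 41.0 CPM in the same order of libraries.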
